A study of Caenorhabditis elegans with 12 samples.

Results

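The insulin-like peptide genes of Caenorhabditis elegans were taken as every row of the count table whose gene has the WormBase symbol ins- followed by a number, or daf-28. The rule gave 40 genes of 46934 in the table, of which 39 are annotated as protein coding and 1, ins-38, as a pseudogene. The rule used gene names and no measured value. Counts came from whole first-stage (L1) larvae that had been held without food in M9 buffer for 48 h after hatching from hypochlorite-treated eggs. The groups were 3 strains with 4 biological replicate libraries each, lettered A to D. They were N2, the wild type, HBR2340, which carries flp-11(syb1445), and PHX2193, which carries flp-11(syb2193). What the alleles change is not stated in the labels, and every strain was grown on NEP plates and starved in the same way. The neuropeptide gene flp-11 itself was at 254 ± 76.6 CPM (counts scaled to a common library size) in N2, 123 ± 15.4 in HBR2340 and 21.1 ± 1.88 in PHX2193 (mean ± SD, n = 4 libraries).

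Insulin-like peptides are small secreted hormones, made mainly in neurons and in the intestine of the worm. Agonists among them activate DAF-2, the only insulin and IGF receptor of the worm, which signals through PI3 kinase, PDK-1 and the AKT kinases to keep the FOXO transcription factor DAF-16 out of the nucleus. Antagonists among them lower DAF-2 signalling. When larvae hatch without food, DAF-2 signalling is low and DAF-16 is needed for the arrest of development and for survival.

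N2 libraries held 23068345 to 34832403 counts, those of HBR2340 held 25642142 to 28865328 and those of PHX2193 held 23941071 to 30526360. At these depths 3 counts in 1 library correspond to 0.0823 to 0.17 CPM, a floor that covers counting error only. Of the 40 genes, 39 had at least 1 count and 24 passed the filter on low counts and were tested. One N2 library, N2 B, stood apart: 27% of all tested genes lay over 2-fold away from the mean log2 level of the remaining wild-type libraries there, against 6.42% to 11.1% for N2 A, C and D. Among the 24 tested insulin-like genes, 9 lay that far off in N2 B, with ins-24, ins-27 and ins-28 higher and ins-4, ins-11, ins-20, ins-22, ins-29 and daf-28 lower. Results are therefore also given without N2 B where that library touches them. Markers of other tissues also moved with strain: the summed level of the body wall muscle genes myo-3, unc-54 and unc-15 was 5367 to 10247 CPM in N2, 13231 to 14455 in HBR2340 and 2646 to 5312 in PHX2193. The part of muscle RNA in the results below was not tested. Markers of adult yolk and sperm (vit-2, vit-5 and msp-3), which arrested larvae should lack, summed to at most 1.48 CPM in any library.

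Among the insulin-like genes the levels per transcript length spanned a wide range, and a small number of genes gave most of the summed level. In N2 the highest was ins-17, whose product is reported to act as a DAF-2 antagonist that favours the dauer stage, at 131 ± 30.7 CPM per kb. It was followed by ins-35, an intestinal peptide, at 123 ± 20.1 CPM per kb and by ins-18, a DAF-2 antagonist, at 90.0 ± 31.2 CPM per kb. Next in N2 came ins-27 at 72.4 CPM per kb, ins-3 at 66.8, ins-1 at 52.0, ins-30 at 43.2, ins-24 at 39.6 and ins-10 at 36.95. Among the 14 highest genes of N2, the libraries of every pair of neighbours in this order overlapped (13 of 13 pairs), so the order within N2 was not separated by the spread. HBR2340 libraries were more alike, and 7 of its 13 neighbouring pairs overlapped. In HBR2340 the leading genes were ins-17 at 114 ± 4.99 CPM per kb, ins-35 at 112 ± 13.9 and then ins-10 at 83.6 ± 9.19, with overlap between each of these neighbours. In PHX2193 the highest mean belonged to ins-3, at 216 ± 188 CPM per kb, ahead of ins-17 at 131 ± 12.5 and ins-35 at 97.2 ± 20.1, again with overlapping libraries. Against all tested genes on the per-kb scale, ins-17 lay above 94.9% of them in N2, 94.5% in HBR2340 and 95.4% in PHX2193. The place of ins-3 moved more, from above 90.1% of tested genes in N2 to 75.6% in HBR2340 and 97.1% in PHX2193. daf-28 lay near the middle of the tested genes, above 54.8%, 40.9% and 62.1% in the same strains.

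**Figure D1:**
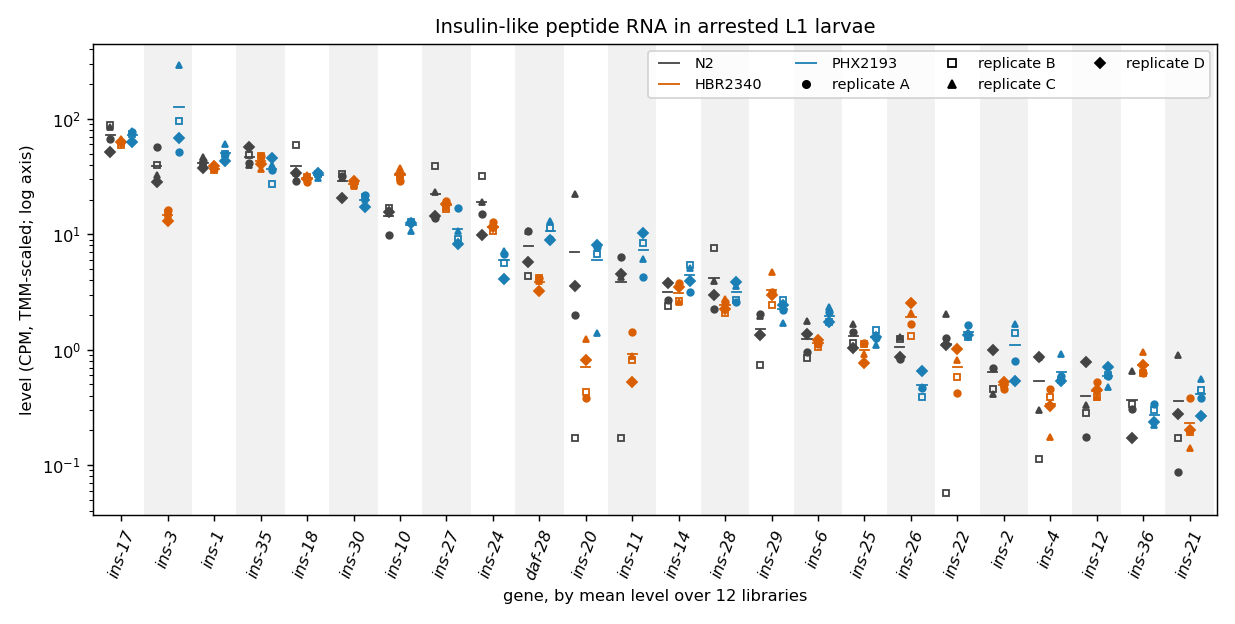
Level of each tested insulin-like gene in each of the 12 libraries, in CPM on a log axis, with a colour for each strain, a marker shape for each replicate letter and a short line at each mean. The ins-3 libraries of PHX2193 sit above those of HBR2340, the ins-10 libraries of HBR2340 sit above those of both other strains, and ins-20 has the widest scatter.

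Summed over the 40 genes, the level was 627 to 884 CPM per kb in N2, 619 to 640 in HBR2340 and 680 to 1083 in PHX2193. Every PHX2193 library lay above every HBR2340 library in this sum, while N2 overlapped both. With ins-3 left out, the sum was 575 to 816 CPM per kb in N2, 593 to 613 in HBR2340 and 557 to 591 in PHX2193, and the order of the flp-11 strains was turned. The share of the summed level held by ins-3 was 7.07% to 14.4% in N2, 3.52% to 4.27% in HBR2340 and 12.99% to 45.6% in PHX2193. The share held by ins-10 was 3.76% to 6.36% in N2, 11.6% to 15.04% in HBR2340 and 2.50% to 4.75% in PHX2193. No test was run on these sums, which follow from the single genes below.

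**Figure D2:**
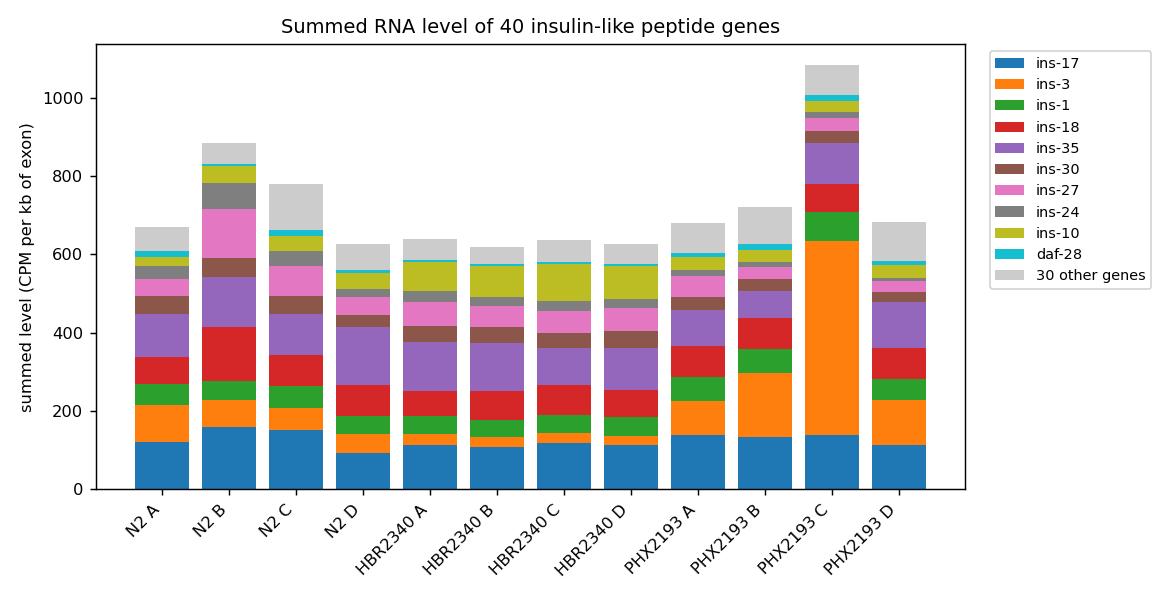
Summed CPM per kb of the insulin-like genes in each library, stacked by gene, with libraries grouped by strain. The ins-3 segment takes 45.6% of the bar of PHX2193 C and 3.52% to 4.27% of the bars of HBR2340.

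In HBR2340 against N2, ins-10 rose and daf-28 fell, and the other 22 tested genes did not pass the test. The background was 3.34% of all tested genes called higher and 4.03% called lower. Thus 2 of the 24 tested genes were called by edgeR's quasi-likelihood test at a Benjamini-Hochberg adjusted p under 0.05, or 8.33%, beside 7.37% of all tested genes. The libraries of the 2 strains did not overlap for 5 of the 24 genes, or 20.8%, beside 13.8% of all tested genes. The median log2 fold change of the 24 genes was -0.33, against -0.04 over all tested genes. The median size of the change, in either direction, was 0.69 on the log2 scale against 0.24 over all tested genes. The genes were not matched for level or scatter, and the size of a change also grows with scatter. Without N2 B, 6 of the 24 genes were called, beside 17.7% of all tested genes.

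The ins-10 gene (WBGene00002093) lies at V:14033949-14034396 on the plus strand of build WBcel235. Its libraries gave 9.90, 17.03, 15.4 and 15.6 CPM in N2 A to D and 29.1, 31.2, 37.6 and 33.1 CPM in HBR2340 A to D. PHX2193 A to D stood at 12.7, 12.7, 10.6 and 12.5 CPM. All HBR2340 libraries were above all libraries of the other strains, and N2 and PHX2193 overlapped. The rise in HBR2340 over N2 was 2.26-fold, a log2 fold change of 1.18 ± 0.16 (SE), with an adjusted p of 0.000826 in edgeR. In PHX2193 ins-10 was lower than in HBR2340 by a log2 fold change of -1.43 ± 0.16 (edgeR, adjusted p = 6.3e-05), and both calls held when any 1 library was left out. Its level in PHX2193 against N2 did not pass the test. The gene vps-39 overlaps ins-10 on the other strand, and the use of strand in counting is not stated in the sources. vps-39 stood at 32.6 ± 1.78 CPM in N2, 35.4 ± 2.65 CPM in HBR2340 and 31.7 ± 2.45 CPM in PHX2193, and it was not called between HBR2340 and N2 (edgeR, adjusted p = 0.520) or between PHX2193 and HBR2340 (adjusted p = 0.265).

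The daf-28 gene (V:19815133-19816454, plus strand) encodes a DAF-2 agonist made in the ASI and ASJ sensory neurons that opposes entry into the dauer stage and, together with ins-4, opposes L1 arrest. It stood at 10.7, 4.31, 10.8 and 5.80 CPM in N2 A to D, 4.15, 4.21, 3.94 and 3.25 CPM in HBR2340 A to D, and 9.09, 11.4, 12.99 and 8.98 CPM in PHX2193 A to D. All HBR2340 libraries were below all others, N2 B being the closest of N2 to them, and N2 and PHX2193 overlapped. daf-28 fell in HBR2340 against N2 by a log2 fold change of -1.03 ± 0.27 (edgeR, adjusted p = 0.0383). That call ended when N2 A, N2 C, PHX2193 A, PHX2193 B or any HBR2340 library was left out, with adjusted p between 0.00193 and 0.107 over all 12 such fits, and also in limma-voom (0.0741), with the replicate block (0.0512) and in a fit of the 8 libraries alone (0.0948). Without N2 B it was -1.24 ± 0.21 with an adjusted p of 0.00193. Between the flp-11 strains daf-28 was 2.73-fold higher in PHX2193, a log2 fold change of 1.45 ± 0.27 (edgeR, adjusted p = 0.00259), and this call held without any 1 library. The markers of ASI and ASJ (daf-7, str-3, gpa-4, trx-1 and ssu-1) summed to 103 to 176 CPM in N2, 94.4 to 144 in HBR2340 and 109 to 159 in PHX2193, and 0 of 5 were called in any comparison by edgeR, DESeq2 or limma-voom, or at an unadjusted p under 0.05 in edgeR. Within the sum of these markers daf-7 alone stood at 91.0 to 161 CPM in N2, so the sum mostly follows daf-7. In RNA from whole larvae, fewer cells that express a gene and less of its RNA per cell cannot be told apart.

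In PHX2193 against N2, ins-24 fell and was the only one of the 24 tested genes to be called. That is 4.17%, beside 0.365% of all tested genes. The libraries did not overlap for 2 of the 24 genes, or 8.33%, beside 6.03% of all tested genes. The median log2 fold change was 0.05, against -0.01 over all tested genes. The median size of the change was 0.44 against 0.19, again with genes not matched for level or scatter. The ins-24 gene (I:14031147-14031667, minus strand) stood at 15.1, 31.7, 19.1 and 9.79 CPM in N2 A to D, at 12.8, 10.7, 11.5 and 11.6 CPM in HBR2340 A to D, and at 6.77, 5.69, 7.23 and 4.07 CPM in PHX2193 A to D. All PHX2193 libraries were below all libraries of the other strains, and N2 B was the highest. ins-24 fell in PHX2193 against N2 by a log2 fold change of -1.67 ± 0.30 (edgeR, adjusted p = 0.0353). The call ended without N2 C, any HBR2340 library or any PHX2193 library, in limma-voom (0.0635), with the replicate block (0.0654) and in the 8 libraries alone (0.260). Without N2 B it was -1.31 ± 0.22 with an adjusted p of 0.0128. It was also lower than in HBR2340, by a log2 fold change of -0.97 ± 0.29 (edgeR, adjusted p = 0.0346), a call that ended without any HBR2340 library or without PHX2193 A, B or D.

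**Figure D3:**
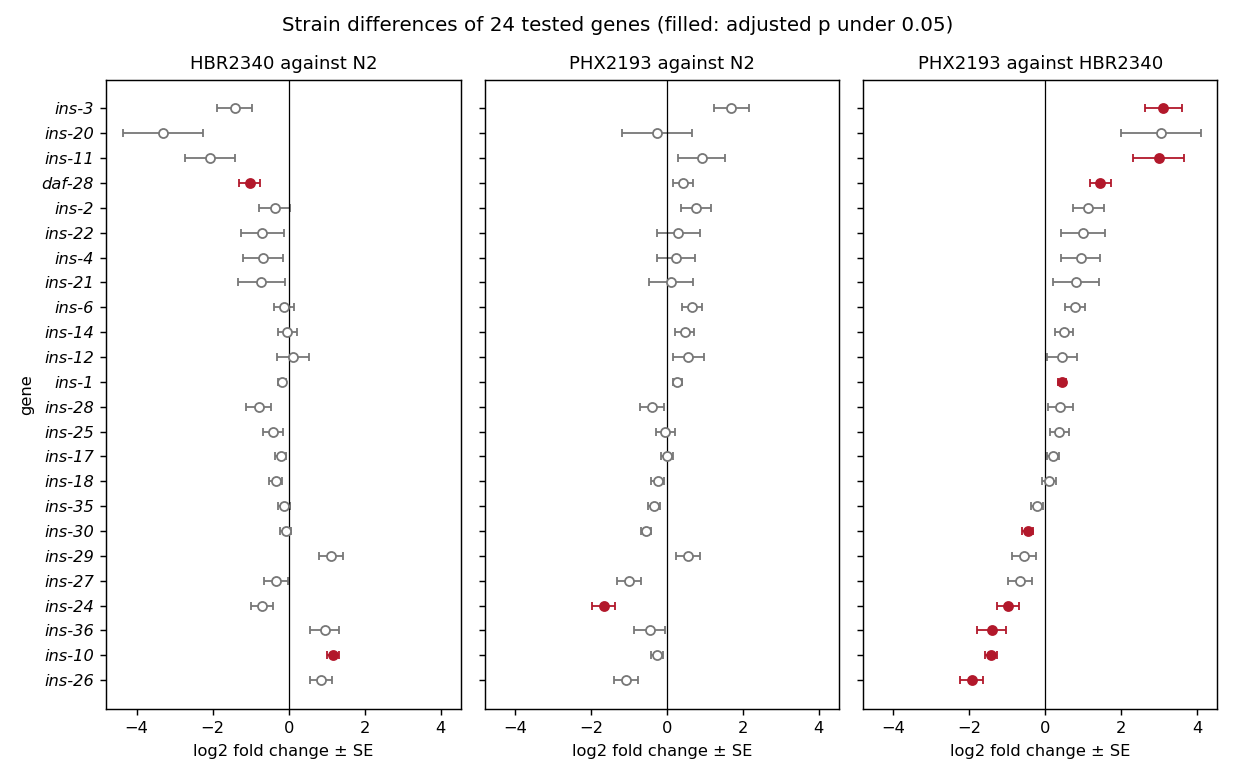
Log2 fold change of each tested insulin-like gene in the 3 strain comparisons, with bars of 1 SE and filled points for genes called at an adjusted p under 0.05. Between PHX2193 and HBR2340, ins-3 (3.11) and ins-11 (2.98) lie farthest to the positive side among called genes, and ins-26 (-1.93) farthest to the negative side.

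The strains that carry the flp-11 alleles were also compared with each other, and this comparison shares its libraries with those above. In PHX2193 against HBR2340, 9 of the 24 tested genes were called, or 37.5%, beside 19.5% of all tested genes. ins-3, ins-11, daf-28 and ins-1 were higher in PHX2193 (4 genes, beside 10.1% of all tested genes called higher), and ins-10, ins-26, ins-36, ins-24 and ins-30 were lower (5 genes, beside 9.39% called lower). The libraries did not overlap for 14 of the 24 genes, or 58.3%, beside 35.5% of all tested genes. The median log2 fold change was 0.42, against 0.02 over all tested genes. The median size of the change was 0.80 against 0.31, here too with genes not matched for level or scatter. Without N2 B, 14 of the 24 genes were called, beside 32.9% of all tested genes. The calls of ins-1, ins-3, ins-10, ins-11, ins-26 and daf-28 held in all 12 fits that left out 1 library.

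One of the genes higher in PHX2193 was ins-3 (WBGene00002086, II:5990099-5990768, minus strand), a DAF-2 agonist that together with ins-33 promotes proliferation of the larval germ line. It stood at 56.7, 39.96, 32.5 and 28.2 CPM in N2 A to D, at 16.098, 15.2, 14.7 and 12.99 CPM in HBR2340 A to D, and at 52.0, 96.7, 291 and 68.5 CPM in PHX2193 A to D. HBR2340 was below all other libraries, PHX2193 C was far above all others, and only PHX2193 A lay within the range of N2. ins-3 was 8.61-fold higher in PHX2193 than in HBR2340, a log2 fold change of 3.11 ± 0.49 (edgeR, adjusted p = 0.000944). Without PHX2193 C the log2 fold change of ins-3 was 2.31 and the call held, below that of ins-11 without the same library (3.09). Against N2 neither strain passed the edgeR test, with log2 fold changes of -1.42 ± 0.46 in HBR2340 (edgeR, adjusted p = 0.0909) and 1.69 ± 0.46 in PHX2193 (adjusted p = 0.154), while DESeq2 called both (adjusted p = 0.0126 and 0.00950). Without PHX2193 C the first of these was called (adjusted p = 0.00418) and the second had a log2 fold change of 0.88. Germ cell markers (pgl-1, glh-1 and nos-2) summed to 12.9 to 42.2 CPM in N2, 15.2 to 24.2 in HBR2340 and 11.1 to 43.1 in PHX2193.

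The ins-11 gene (II:5556731-5557173, plus strand) encodes an intestinal peptide that is raised by pathogenic bacteria and takes part in learned avoidance of them. It stood at 6.38, 0.17, 4.31 and 4.53 CPM in N2 A to D, 1.43, 0.82, 0.88 and 0.53 CPM in HBR2340 A to D, and 4.29, 8.46, 6.05 and 10.3 CPM in PHX2193 A to D. PHX2193 and HBR2340 did not overlap, and N2 B lay below every other library of the study. ins-11 was 7.91-fold higher in PHX2193 than in HBR2340, a log2 fold change of 2.98 ± 0.68 (edgeR, adjusted p = 0.00862). Against N2 its log2 fold change in HBR2340 was -2.07 ± 0.67 (edgeR, adjusted p = 0.0847, and 0.0124 in DESeq2), and without N2 B it was -2.47 ± 0.34 with an adjusted p of 0.000524. Summed intestinal markers overlapped between the strains, at 1325 to 2341 CPM in N2, 1365 to 2051 in HBR2340 and 1349 to 2038 in PHX2193. Within this sum ifb-2 alone stood at 908 to 2053 CPM in N2, so the sum mostly follows that gene. Of the 7 intestinal markers, edgeR called 1, elt-2, an intestinal GATA factor, lower in HBR2340 against N2 and higher in PHX2193 against HBR2340. Of all tested genes, 4.03% were called lower and 10.1% higher in these comparisons. The first of the elt-2 calls ended without N2 A, HBR2340 A or HBR2340 C. Without N2 B, ges-1, an intestinal esterase, was also called in the same directions (edgeR, adjusted p = 0.0486 and 0.0115). That fit called 1592 of 16249 genes lower in the first comparison and 2808 higher in the second. The part of these genes in the ins-11 difference was not tested.

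The ins-1 gene (IV:10436701-10438412, plus strand) encodes a neuronal DAF-2 antagonist and is among the worm peptides most like human insulin. It stood at 42.8, 40.02, 46.8 and 37.4 CPM in N2 A to D, at 36.8, 35.9, 36.7 and 39.05 CPM in HBR2340 A to D, and at 49.8, 49.4, 60.2 and 42.9 CPM in PHX2193 A to D. PHX2193 and HBR2340 did not overlap, while N2 overlapped both. ins-1 was 1.36-fold higher in PHX2193 than in HBR2340, a log2 fold change of 0.45 ± 0.11 (edgeR, adjusted p = 0.0130), a small but narrow difference. Neuronal markers summed to 3851 to 7817 CPM in N2, 5363 to 6159 in HBR2340 and 4076 to 6117 in PHX2193. Of these 8 markers, edgeR called 1, rab-3, lower in PHX2193 than in HBR2340, beside 9.39% of all tested genes. Without N2 B it called 2 of 8 lower there, beside 2531 of 16249 genes. In HBR2340 against N2 that fit called 1 of 8 higher, beside 1288 of 16249 genes.

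**Figure D4:**
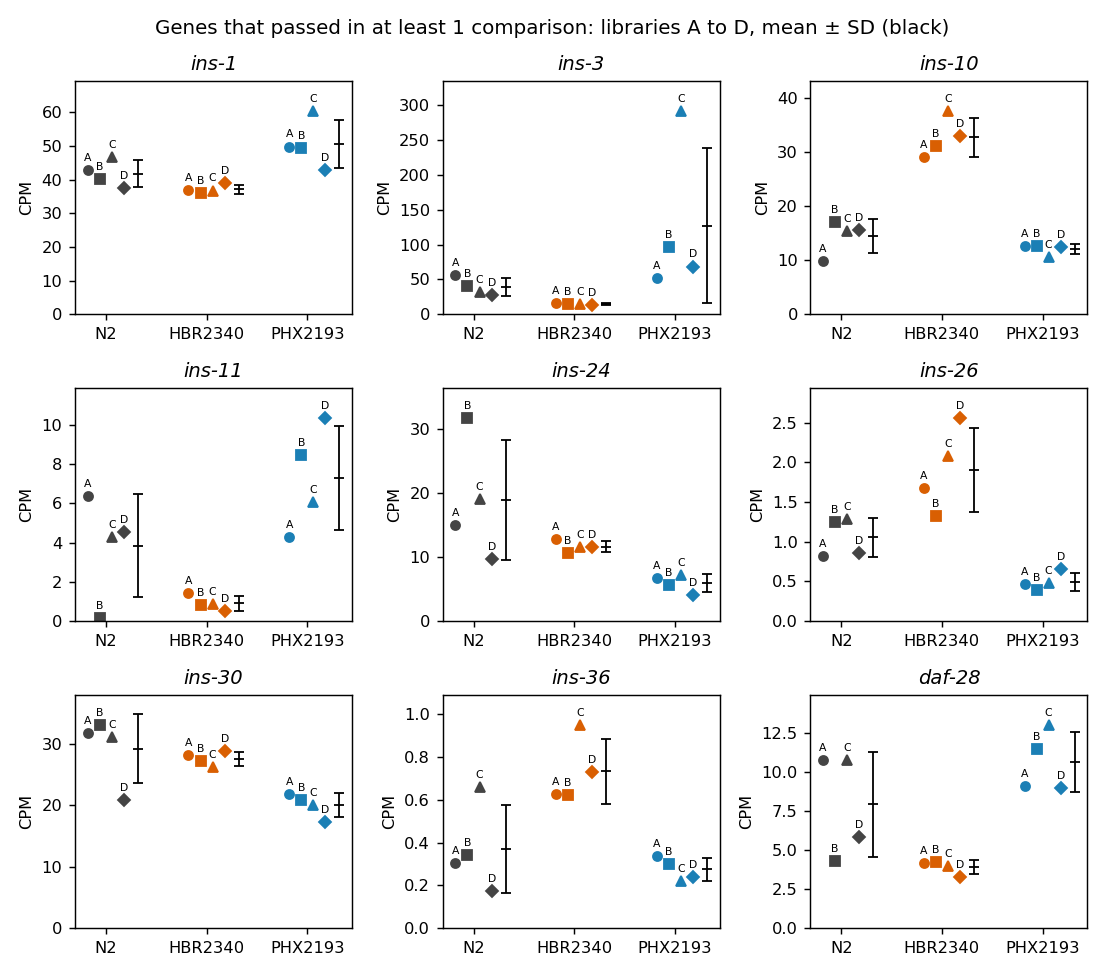
CPM of the 9 insulin-like genes called in at least 1 comparison, all of them called between PHX2193 and HBR2340, with 1 point for each of 4 libraries per strain and bars for the mean and SD. The points of PHX2193 and HBR2340 are separate in each panel, whereas N2 overlaps at least 1 of them in most panels.

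Many of these genes lie side by side in the genome. Of the 40 genes, 16 lie on chromosome II, 10 on I, 5 on III, 4 on IV, 3 on V and 2 on X, and 26 of them fall into 7 groups with no more than 15 kb between neighbours. The largest group, at I:14012369-14037777, holds 7 genes in 25409 bases. At one end of it, ins-24, ins-30 and ins-26 follow each other on the minus strand, and all 3 were lower in PHX2193 than in HBR2340. The ins-30 gene (I:14034954-14036057) stood at 31.7, 33.03, 31.01 and 20.8 CPM in N2 A to D, at 28.1, 27.1, 26.2 and 28.7 CPM in HBR2340 A to D, and at 21.7, 20.9, 20.03 and 17.2 CPM in PHX2193 A to D. PHX2193 and HBR2340 did not overlap, and N2 D was the N2 library that reached into the range of PHX2193. The log2 fold change of ins-30 in PHX2193 against HBR2340 was -0.46 ± 0.14 (edgeR, adjusted p = 0.0313). That call ended without any HBR2340 library, without PHX2193 B, C or D, and with no filter on low counts (0.0525). In PHX2193 against N2 the log2 fold change of ins-30 was -0.55 ± 0.14 and was not called (edgeR, adjusted p = 0.122). There it was called by DESeq2 (0.0183) and by edgeR without N2 D (0.0243).

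The ins-26 gene (I:14037151-14037777) stood at 0.83, 1.25, 1.29 and 0.86 CPM in N2 A to D, at 1.67, 1.33, 2.08 and 2.56 CPM in HBR2340 A to D, and at 0.46, 0.39, 0.48 and 0.65 CPM in PHX2193 A to D. The 3 strains did not overlap with each other, with N2 in the middle. Its log2 fold change in PHX2193 against HBR2340 was -1.93 ± 0.30 (edgeR, adjusted p = 0.000778), while neither strain passed the test against N2, at 0.85 ± 0.29 in HBR2340 (adjusted p = 0.101) and -1.08 ± 0.30 in PHX2193 (adjusted p = 0.168). The other tested genes of the group were not called in PHX2193 against HBR2340. Among them ins-27 had a log2 fold change of -0.67 there (edgeR, adjusted p = 0.162) and was called without N2 B (adjusted p = 0.0358). ins-29, on the plus strand, stood at 2.04, 0.74, 1.97 and 1.34 CPM in N2 A to D and at 3.17, 2.42, 4.72 and 2.96 CPM in HBR2340 A to D, which did not overlap. Its log2 fold change in HBR2340 against N2 was 1.11 ± 0.32 (edgeR, adjusted p = 0.0548, and 0.0374 without N2 B), and DESeq2 called it.

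**Figure D5:**
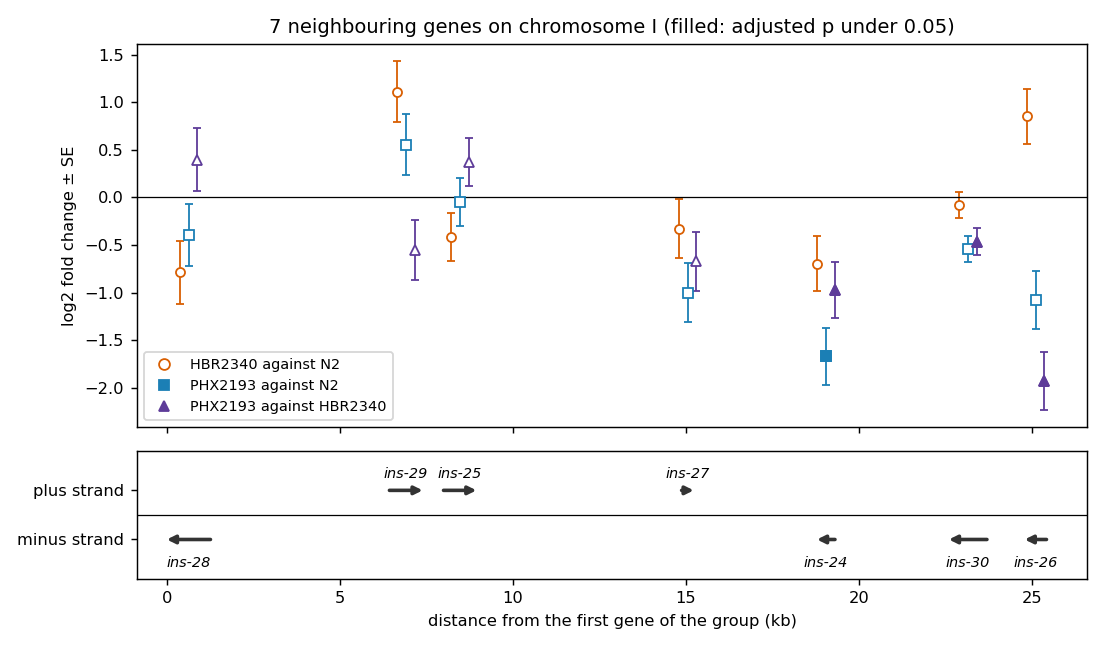
Map of the 7 insulin-like genes of the group on chromosome I, with distance in kb from the start of the group and arrows for strand, below their log2 fold changes in the 3 strain comparisons with bars of 1 SE and filled points for called genes. ins-24, ins-30 and ins-26, at 18.78 to 25.41 kb, are the genes called in PHX2193 against HBR2340, and ins-24 alone is called in PHX2193 against N2.

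Outside that group on chromosome I lies ins-36 (I:11212307-11215094, minus strand), a gene of low level. It stood at 0.30, 0.34, 0.66 and 0.17 CPM in N2 A to D, at 0.63, 0.62, 0.95 and 0.73 CPM in HBR2340 A to D, and at 0.34, 0.30, 0.22 and 0.24 CPM in PHX2193 A to D. HBR2340 and PHX2193 did not overlap, and N2 overlapped both. The log2 fold change in PHX2193 against HBR2340 was -1.41 ± 0.39 (edgeR, adjusted p = 0.0232). The call ended without HBR2340 C or D, without PHX2193 B, C or D, and with no filter on low counts (0.0612). Y53H1A.7 overlaps ins-36 on the other strand and, at 0.199 CPM in N2, 0.312 CPM in HBR2340 and 0.274 CPM in PHX2193, was not called in any comparison.

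The group on chromosome II at 5988524 to 6011321 holds ins-2, ins-3, ins-4, ins-5, ins-6 and ins-20, and edgeR called only ins-3 among them. In PHX2193 against HBR2340, DESeq2 also called ins-2 (adjusted p = 0.0473), ins-6 (0.0214) and ins-20 (0.0185), all higher. ins-6, an agonist that promotes exit from the dauer stage, stood at 0.96, 0.85, 1.78 and 1.37 CPM in N2 A to D, at 1.12, 1.05, 1.20 and 1.22 CPM in HBR2340 A to D, and at 2.10, 1.75, 2.32 and 1.72 CPM in PHX2193 A to D. All PHX2193 libraries were above all HBR2340 libraries, and the log2 fold change of 0.78 ± 0.26 missed the threshold in edgeR (adjusted p = 0.0548). It was past the threshold in limma-voom (0.0478), with DESeq2 size factors in edgeR (0.0489), with a stricter filter (0.0471), in the 8 libraries alone (0.0128), and without N2 A, N2 B or N2 C. ins-4, an agonist that acts with daf-28, stood at 0.87, 0.11, 0.30 and 0.86 CPM in N2 A to D, at 0.45, 0.39, 0.18 and 0.32 CPM in HBR2340 A to D, and at 0.59, 0.54, 0.92 and 0.54 CPM in PHX2193 A to D. HBR2340 lay below PHX2193 in all libraries, with a log2 fold change of 0.93 in PHX2193 against HBR2340 that was not called (edgeR, adjusted p = 0.249). ins-20 had the highest SD of the log2 level among the tested insulin-like genes in each strain: its levels were 2.0, 0.17, 22.3 and 3.57 CPM in N2 A to D, 0.38, 0.43, 1.23 and 0.81 CPM in HBR2340 A to D, and 7.70, 6.71, 1.40 and 8.0 CPM in PHX2193 A to D. Its log2 fold change was -3.31 ± 1.06 in HBR2340 against N2 (edgeR, adjusted p = 0.0872), -3.71 without N2 B (adjusted p = 0.0185) and -1.45 without N2 C. In PHX2193 against HBR2340 it was 3.05 ± 1.06 (adjusted p = 0.0649).

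Among the genes with the highest levels, ins-17, ins-18 and ins-35 were not called in any comparison by edgeR. ins-17 (III:4476918-4477572) stood at 66.9, 89.1, 84.4 and 51.7 CPM in N2 A to D, at 63.0, 59.8, 66.6 and 63.6 CPM in HBR2340 A to D, and at 76.7, 74.5, 77.8 and 62.7 CPM in PHX2193 A to D, with N2 spanning both other strains. ins-18 (I:8147427-8149651) stood at 29.1, 58.9, 34.0 and 33.7 CPM in N2 A to D, while the 8 libraries of the flp-11 strains lay between 28.4 and 33.9 CPM, so that N2 B alone was apart. ins-35 (V:20375536-20376302) stood at 41.9, 48.6, 40.2 and 57.0 CPM in N2 A to D, at 47.3, 47.3, 36.5 and 40.6 CPM in HBR2340 A to D, and at 36.0, 27.2, 39.99 and 45.4 CPM in PHX2193 A to D, all overlapping. ins-22, whose peptide is widely used in tagged form as a cargo of dense core vesicles, stood at 1.26, 0.06, 2.03 and 1.10 CPM in N2 A to D, at 0.42, 0.59, 0.81 and 1.01 CPM in HBR2340 A to D, and at 1.64, 1.29, 1.37 and 1.34 CPM in PHX2193 A to D. It was low in N2 B, and its log2 fold change in HBR2340 against N2 was -0.69 ± 0.58 (edgeR, adjusted p = 0.555) with that library and -1.07 ± 0.32 (adjusted p = 0.0354) without it. In PHX2193 against HBR2340 it was 0.99 (adjusted p = 0.267, and 0.0211 without N2 B). The lower-level genes ins-2, ins-12, ins-14, ins-21, ins-25 and ins-28 lay between 0.0869 and 7.61 CPM over all libraries and were not called in any comparison by edgeR. Of these, ins-2 was higher in all PHX2193 than in all HBR2340 libraries, with a log2 fold change of 1.14 (edgeR, adjusted p = 0.0640), and was called without N2 B or without PHX2193 D, in DESeq2 (0.0473) and in the 8 libraries alone (0.0315).

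Scatter within a strain was wider for these genes than the median over all genes in N2 and PHX2193, and near that median in HBR2340. The genes were not matched for level. The median SD of the log2 level over the 24 tested genes was 0.59 in N2, 0.18 in HBR2340 and 0.28 in PHX2193, beside 0.39, 0.17 and 0.21 over all tested genes. In N2 without N2 B it was 0.41 beside 0.22.

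The remaining 16 genes had too few counts to be tested, with at most 47 counts in any library. They were ins-5, ins-7, ins-8, ins-9, ins-13, ins-15, ins-16, ins-19, ins-23, ins-31, ins-32, ins-33, ins-34, ins-37, ins-38 and ins-39, and ins-32 had no count in any library. ins-7, an agonist that feeds back on DAF-2 signalling from the intestine, had 6, 0, 4 and 6 counts in N2 A to D, 4, 0, 0 and 0 in HBR2340 A to D, and 7, 11, 7 and 16 in PHX2193 A to D. Scaled to library size, all PHX2193 libraries were above all HBR2340 libraries, while PHX2193 C (0.258 CPM) and N2 A (0.261 CPM) overlapped. With no filter on low counts ins-7 was called in PHX2193 against HBR2340 (edgeR, adjusted p = 0.0302). ins-33, which acts with ins-3, had 6, 9 and 11 counts summed over the 4 libraries of N2, HBR2340 and PHX2193, and ins-37 had 16 in each strain. No difference of ins-33 or ins-37 between strains was detectable at this depth.

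Downstream of the peptides, the receptor itself did not pass the test: daf-2 stood at 650 ± 121 CPM in N2, 756 ± 47.9 CPM in HBR2340 and 656 ± 114 CPM in PHX2193. Its adjusted p in edgeR was 0.497 for HBR2340 and 0.987 for PHX2193, each against N2, and 0.437 for PHX2193 against HBR2340. daf-16 stood at 348, 385 and 335 CPM in the same strains and was not called either (edgeR, adjusted p = 0.573, 0.912 and 0.308). Of 16 genes of the receptor and its kinase cascade, 2 rose in HBR2340 against N2, beside 3.34% of all tested genes called higher. Without N2 B 4 were higher, beside 1288 of the 16249 genes tested in that fit. The 2 called with all libraries were pdk-1, the kinase that activates AKT, by a log2 fold change of 0.81 ± 0.20 (edgeR, adjusted p = 0.0276) and akt-1 by 0.47 ± 0.11 (adjusted p = 0.0254). The pdk-1 call ended without N2 A, C or D or any HBR2340 library. The akt-1 call ended without N2 A, C or D or HBR2340 B, C or D. Against N2, 0 of the 16 were called in PHX2193 by edgeR, DESeq2 or limma-voom, and 1 had an unadjusted p under 0.05 in edgeR. There edgeR called 0.365% of all tested genes. In PHX2193 against HBR2340, 4 of 16 were lower, beside 9.39% of all tested genes, and none was higher. Without N2 B 4 were lower and 1 was higher, beside 2531 and 2808 of 16249 genes. The lower genes included pdk-1 by -1.36 ± 0.20 (edgeR, adjusted p = 0.000527), akt-2 by -0.88 ± 0.26 (adjusted p = 0.0287) and akt-1 by -0.45 ± 0.11 (adjusted p = 0.0139). The akt-2 call ended without PHX2193 B, C or D or any HBR2340 library, and the akt-1 call without PHX2193 C. The median log2 fold change of the 16 was 0.10 in HBR2340 against N2, -0.08 in PHX2193 against N2 and -0.19 between the flp-11 strains, against -0.04, -0.01 and 0.02 over all tested genes. Without N2 B it was 0.21, 0.04 and -0.18.

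The machinery that cleaves, packs and releases the peptides gave few calls. Of 17 such genes, 0 were called by edgeR in any comparison. Of all tested genes, edgeR called 7.37% in HBR2340 against N2, 0.365% in PHX2193 against N2 and 19.5% in PHX2193 against HBR2340. In the same order, 2, 1 and 2 of the 17 had an unadjusted p under 0.05. limma-voom also called 0, beside 6.75%, 0.339% and 20.2% of all tested genes. DESeq2 called 1, higher in PHX2193 against HBR2340, where 1937 of 15908 genes were higher. Without N2 B, edgeR called 2 higher in HBR2340 against N2, and 1 higher and 2 lower in PHX2193 against HBR2340. Over the 16249 genes of that fit, 1288 were higher in the first comparison, and 2808 were higher and 2531 lower in the second. Of 13 known regulators of peptide secretion, dnj-27, a protein disulfide isomerase of the endoplasmic reticulum, fell in HBR2340 against N2 by a log2 fold change of -0.64 ± 0.15 (edgeR, adjusted p = 0.0199) and was higher in PHX2193 than in HBR2340 by 0.59 ± 0.15 (adjusted p = 0.0135), and edgeR called none of the other 12. Over all tested genes, 4.03% were called lower in HBR2340 against N2 and 10.1% higher in PHX2193 against HBR2340. The dnj-27 call against N2 ended without N2 A, HBR2340 B or HBR2340 D. In PHX2193 against HBR2340, DESeq2 called 1 of the 13 higher and 2 lower, beside 1937 and 1778 of 15908 genes. There edgeR without N2 B called 2 higher and 3 lower, beside 2808 and 2531 of 16249 genes.

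Among known DAF-16 targets, 4 of the 18 tested rose and 1 fell in HBR2340 against N2, beside 3.34% and 4.03% of all tested genes. Without N2 B, 7 were higher and 2 lower, beside 1288 and 1592 of the 16249 genes tested in that fit. The superoxide dismutase genes sod-5 and sod-3 had log2 fold changes of 5.17 and 3.85, and lea-1, which encodes a desiccation protein, 1.75. The gene that fell was dod-6, by -0.88 ± 0.22 (edgeR, adjusted p = 0.0278). That call ended without N2 A, N2 C or HBR2340 B, C or D. In PHX2193 against N2, 0 of 18 were called by edgeR, beside 0.365% of all tested genes. An unadjusted p under 0.05 was reached by 9 of the 18. The share of all tested genes at that unadjusted threshold was not taken, so this count has no background beside it. There limma-voom called 0, DESeq2 called 4, all lower, and edgeR without N2 B called 2, both lower. Over all genes, 254 of 15908 were lower in DESeq2 and 108 of 16249 in edgeR without N2 B. In PHX2193 against HBR2340, 1 was higher and 6 were lower, beside 10.1% and 9.39% of all tested genes. Without N2 B 3 were higher and 9 lower, beside 2808 and 2531 of 16249 genes. The lower genes included sod-5 by -6.44 ± 0.44, sod-3 by -5.83 ± 0.42 and mtl-1, a metallothionein, by -1.82 ± 0.18. With all libraries the gene called higher was dod-6, by 1.55 ± 0.22 (edgeR, adjusted p = 0.00041). The median log2 fold change of the 18 was 0.02 in HBR2340 against N2, -0.73 in PHX2193 against N2 and -0.55 between the flp-11 strains, against -0.04, -0.01 and 0.02 over all tested genes. Without N2 B these medians were 0.54, -0.08 and -0.53, against -0.04, -0.01 and 0.03, so both medians against N2 moved with that library.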

How the data were processed

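Each of the 12 libraries was made from whole arrested larvae lysed in Trizol with bead beating, per the labels' protocols. The authors deposited raw counts per WormBase gene. Bowtie 0.12.2 and the builds WBcel235 and mm8 are named, per the submitters' processing notes, with no role given; the counting program, annotation release, use of strand and handling of reads with several matches are not stated in those notes or the labels, so counts of near-identical or overlapping genes may be shared. Of 46934 genes, 46924 were found in Ensembl release 115 (WBcel235), used for symbols and positions; ins-38 was matched by its sequence name in the RefSeq table. The members and the gene lists were chosen with earlier results of these data known. The rule for naming genes took those called in any comparison, known DAF-2 ligands, and up to 3 called genes of each pathway list. Outside that rule, fold changes are also given for ins-2, ins-20, ins-27 and ins-29, which only other fits called, and for dod-6.

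Counts were filtered by edgeR's filterByExpr (minimum count 10, minimum total 15; 15908 genes tested and 31026 removed), scaled by TMM and fitted over all 12 libraries with edgeR 4.0.16 in R 4.3.3 (glmQLFit, robust; glmQLFTest, two-sided; common biological coefficient of variation 0.276; 9 residual degrees of freedom). p-values were adjusted by Benjamini-Hochberg over all tested genes and called under 0.05. For counts at an unadjusted p under 0.05, the share of all tested genes at that threshold was not taken. CPM used TMM-scaled totals, and levels between genes were divided by merged exon length. Alternatives included DESeq2 1.42.0 and limma-voom (limma 3.58.1), and the fit was tested on simulated data. Replicates are biological, per the labels. No 2 libraries of the same strain agreed within sampling noise. No sequence is printed.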

Additional observations from a re-analysis of the deposited data

Results flagged for a closer look

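In 5 of the 72 sets of 4 libraries (24 genes in 3 strains), 1 library lay far from the other 3, where chance gives about 1 in 20. These were ins-4 in PHX2193 C at 0.922 CPM, ins-10 in PHX2193 C at 10.6 CPM, ins-18 in N2 B at 58.9 CPM, ins-20 in N2 C at 22.3 CPM and ins-30 in N2 D at 20.8 CPM. Of these, ins-18 in N2 B is 1 of the genes that are high in the library that stands apart from the rest of N2.

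The strains that carry flp-11 alleles differed from each other for 9 genes, by edgeR's test of PHX2193 against HBR2340. These are the calls given above, and the test does not show that a gene departed from N2. For ins-1, ins-3, ins-11, ins-26, ins-30 and ins-36, edgeR called neither strain against N2. The log2 differences were 3.11 for ins-3, 2.98 for ins-11, 1.45 for daf-28 and 0.45 for ins-1. They were -1.93 for ins-26, -1.43 for ins-10, -1.41 for ins-36, -0.97 for ins-24 and -0.46 for ins-30.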

How the results depend on the processing

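Over 21 alternatives (12 that left out 1 library and 9 others) no called result reversed. Of the 60 fold changes of insulin-like genes that were not called, 14 turned sign on leaving out some single library. In HBR2340 against N2, where 2 insulin-like genes were called, DESeq2 called 6, limma-voom 1 and the fit with the replicate block 1. Of all genes tested, these fits called 11.7%, 6.75% and 6.62%, beside 7.37% in the edgeR fit of all 12 libraries. Leaving out 1 library gave 1 to 6, beside 4.11% to 17.7% of all genes tested, the most of both without N2 B. In PHX2193 against N2, where 1 was called, DESeq2 called 3, beside 2.84% of all genes tested. limma-voom called 0, the fit of only the 8 libraries compared 0 and the fit with the replicate block 0, with 7, 5 and 7 genes at an unadjusted p under 0.05. These fits called 0.339%, 0.0195% and 0.151% of all genes tested. Leaving out 1 library gave 0 to 2, beside 0.0433% to 1.4% of all genes tested. In PHX2193 against HBR2340, where 9 were called, the 8 libraries alone gave 14, DESeq2 12, the replicate block 10 and no filter on low counts 8. Of all genes tested, these fits called 34.3%, 23.4%, 19.3% and 8.21%, beside 19.5% in the edgeR fit of all 12 libraries. Leaving out 1 library gave 6 to 14, beside 13.8% to 32.9% of all genes tested. Most pairs with the same replicate letter did not deviate together: 3 of 12 had a correlation over 0.1, with a range of -0.183 to 0.661. The highest was N2 D with PHX2193 D, above every pair with different letters, which ran from -0.46 to 0.372. Whether the D libraries of these strains share a batch was not tested, and the labels do not say. Calls with an adjusted p near 0.05 (daf-28 in HBR2340 against N2, ins-24, ins-30 and ins-36) were the ones lost, and the cause was not tested. Over all genes tested, DESeq2 called 1856 genes in HBR2340 against N2 beside 1173 by edgeR, and 451 beside 58 in PHX2193 against N2, while leaving out N2 B gave 2880 and 228. Genes under 1 CPM rest on few counts.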

Other observations

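The neighbouring genes ins-19 and ins-31 on chromosome II had too few counts to be tested. ins-19 had 0, 47, 0 and 4 counts in N2 A to D, and ins-31 had 3, 19, 5 and 0. For both genes N2 B held the highest count of N2, and over the 4 libraries ins-19 summed to 5 counts in HBR2340 and 3 in PHX2193, and ins-31 to 6 and 17.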
